A study of Mus musculus with 24 samples.

Results

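Brain RNA was compared between 6 mice of a syn-Cre line and 6 mice of a gfap-Cre line, all of them Cre-positive, which makes 12 of the 24 libraries sequenced. The libraries were taken by their labels, cell type Syn or GFAP with genotype Cre_pos. The comparison itself was chosen with earlier results of these data known. The study set neuronal against astrocytic deficiency of EAAT2, a glutamate transporter encoded by Slc1a2. The genotypes are given as syn-Cre+ EAAT2−/− for the syn group and gfapCre+ EAAT2Δ/+ for the gfap group, so both the Cre driver and the state of the EAAT2 alleles differ between them. The Cre-negative groups of both lines, gfap-Cre− EAAT2+/+ and syn-Cre− EAAT2+/+ with 6 mice each, are separate animals. They are used below to show whether a difference between the lines was also present without Cre, and in a direct test of that change. They also enter the shared fit, with its filter, scaling and estimate of the spread. Age, sex, strain, brain region and the Cre constructs are not given in the labels, and the line, its dissection and its library preparation cannot be told apart as sources of a difference.

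EAAT2 is a sodium-driven carrier that clears glutamate from the space around synapses. Most of it sits in astrocyte membranes, and a smaller pool sits in axon terminals. Cre recombinase cuts out DNA between its target sites, in neurons when a synapsin promoter drives it and mainly in astrocytes when a GFAP promoter does. Both tissue samples hold all brain cell types, whatever the cell type label says, and a lower level of a marker can come from fewer cells of a type or from less RNA per cell, which bulk RNA cannot tell apart.

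Counts assigned to genes ranged from 45360765 to 54153589 per library in the syn-Cre-positive group and from 45950905 to 55421541 in the gfap-Cre-positive group. Neuronal, astrocytic, oligodendrocyte and microglial markers were present in all 12 libraries, with Rbfox3, a nuclear protein of neurons, at 206 to 235 CPM in the syn group and 224 to 267 CPM in the gfap group. CPM values are counts scaled to a common library size with TMM factors. The groups differed in library make-up. Reads that fell outside genes took 7.52 to 8.63% of each syn library and 4.47 to 6.15% of each gfap library (two-sided exact permutation p = 0.00216, 0.00541 after adjustment over 10 library measures). Between 26776 and 27807 genes had at least 1 count in the syn libraries, against 25029 to 25771 in the gfap libraries (exact permutation p = 0.00216, adjusted 0.00541). A further split ran through the syn group itself. Ttr, the main secreted protein of the choroid plexus, exceeded 1000 CPM in syn-Cre-positive 2, 5 and 6 and in no gfap library. Syn-Cre-positive 3 carried about double the Y-linked RNA of the other 5 libraries of its group.

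Slc1a2 (ENSMUSG00000005089, GRCm38/mm10 chr2:102658659-102790784) was measured first because both lines target it. It stood at 3009, 3029, 3235, 3033, 3148 and 2616 CPM in the syn-Cre-positive libraries. In the gfap-Cre-positive libraries it stood at 3854.5, 3636, 3249, 3043, 3519 and 3580 CPM. The highest syn library lay above gfap library 4, so the groups overlapped, with syn library 6 below all others. The log2 difference, syn minus gfap, was −0.21 (SE 0.08, 95% interval −0.37 to −0.05, edgeR adjusted p = 0.0440). That is close to the threshold, and the call was lost under both other scalings, in DESeq2 and in 8 of the 12 fits that left out 1 Cre-positive library. In the Cre-negative groups the difference was −0.08 (edgeR adjusted p = 0.437). The counts cover the whole gene, so a transcript that lost only the exons between Cre target sites would still be counted.

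Of 19726 genes tested, 5416 (27.5%) differed between the Cre-positive groups at an edgeR adjusted p under 0.05. Of these, 2517 (12.8% of tested genes) were higher in the syn group and 2899 (14.7%) lower. The share higher among called genes was 46.5% with TMM scaling, 58.0% with RLE scaling and 65.5% with upper-quartile scaling, so the balance of directions depends on the scaling. Large differences went mostly one way. At least 1.5-fold differences numbered 1361 higher (6.90%) and 40 lower (0.203%). Called or not, 1115 tested genes (5.65%) had all 6 syn libraries above all 6 gfap libraries. Another 1508 tested genes (7.64%) had all 6 syn libraries below all 6 gfap libraries. The median log2 difference over all genes tested was −0.02. It was −0.13 among genes with a mean over 100 CPM, so the median of a list of abundant genes is not read against −0.02 alone.

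The gene groups that stood highest in the syn group were choroid plexus, ependymal, nuclear RNA and myelin genes. The groups that stood lowest by their medians were endothelial, hippocampal, interneuron, mitochondrial, immediate early and postsynaptic genes, each by a much smaller amount. The shares called depend on abundance: of the 2275 genes with a mean over 100 CPM 46.6% were lower and 5.63% higher (median log2 difference −0.13), and of the 4835 genes under 1 CPM 0.517% were lower and 14.6% higher. Each list is therefore read against the share called among all tested genes of its members' abundance, taken over 4 abundance classes and given below as the share at like abundance.

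**Figure D1:**
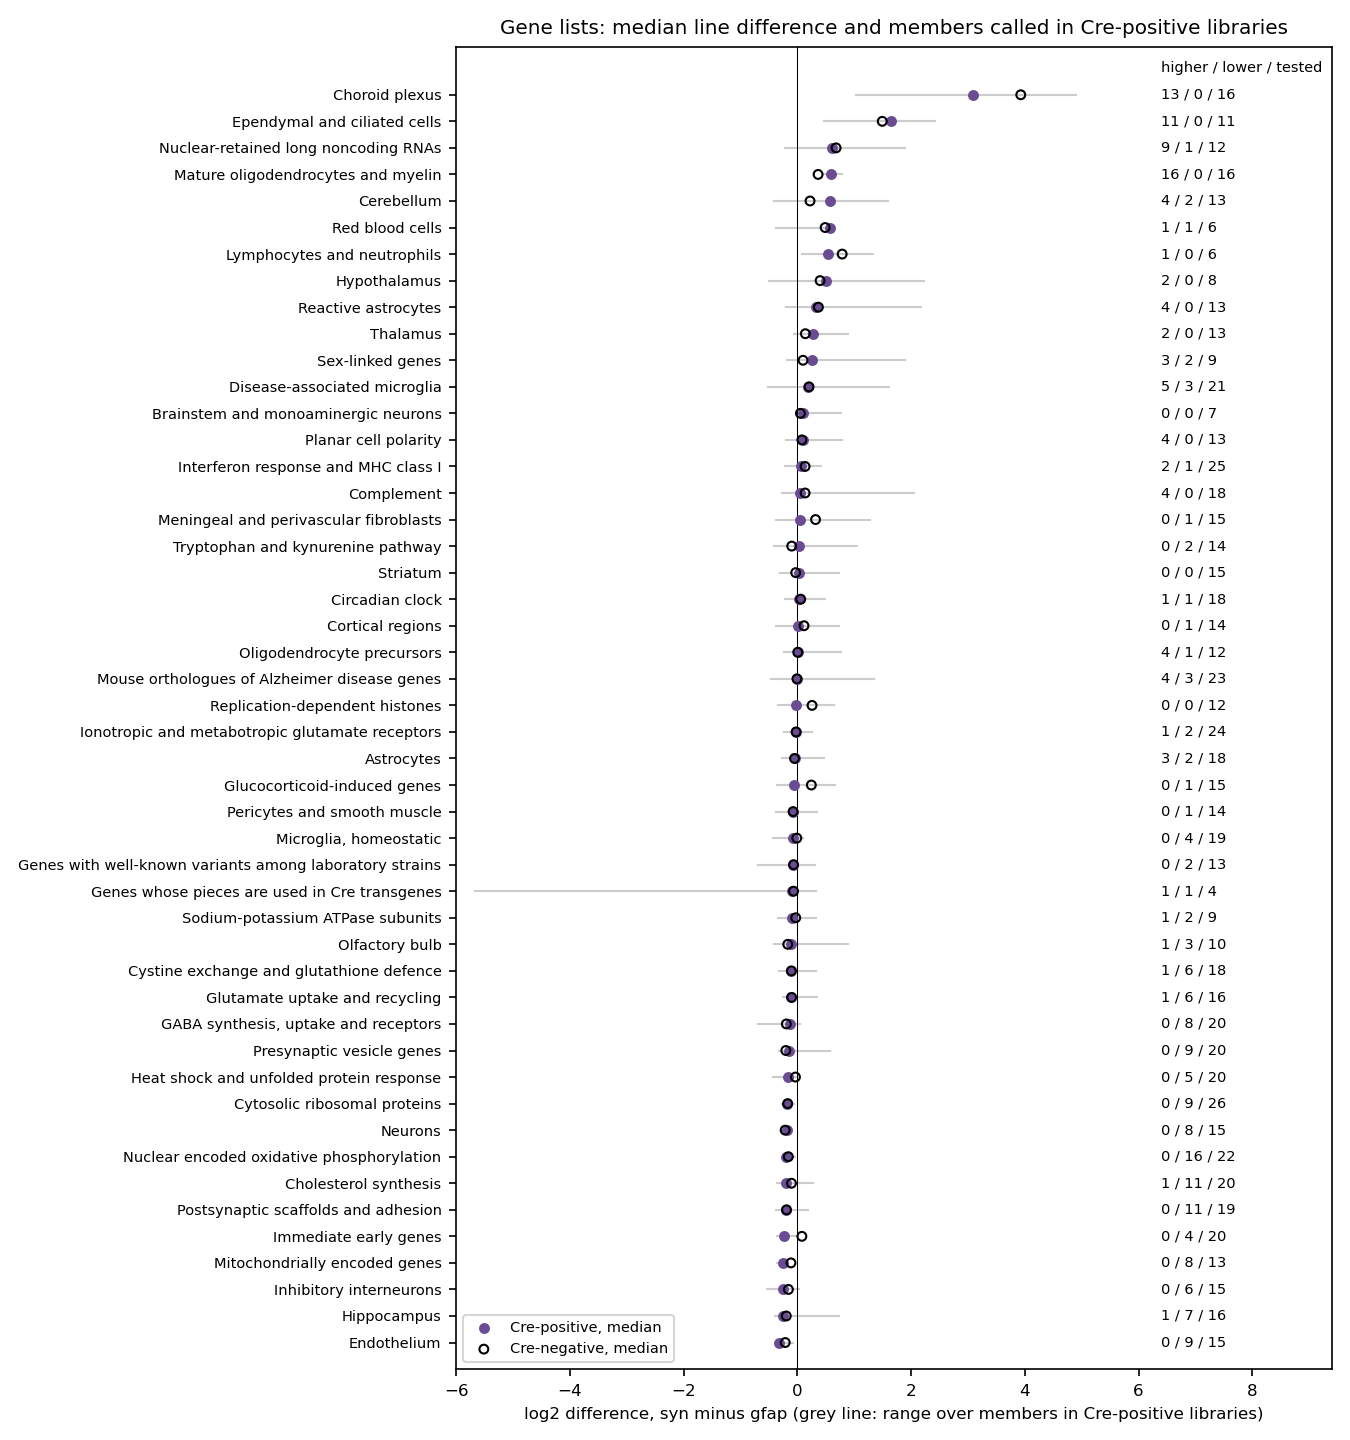
Median log2 difference (syn minus gfap) of 48 gene lists. Filled circles show the Cre-positive libraries, open circles the Cre-negative libraries, grey lines the range over members in the Cre-positive libraries, and the numbers give members higher, lower and tested at an edgeR adjusted p under 0.05. Choroid plexus, ependymal and nuclear RNA lists stand farthest to the right at 3.09, 1.64 and 0.61, and most open circles lie close to the filled ones.

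Most of these differences were present without Cre. The Cre-negative groups differed at 6161 genes (31.2%), of which 2884 (14.6%) were higher in the syn line and 3277 (16.6%) lower. A total of 3930 genes differed in the same direction in both comparisons, which is 72.6% of the Cre-positive calls and 63.8% of the Cre-negative calls, and 2 differed in opposite directions. Of the 1484 genes that passed only in the Cre-positive libraries, 95.2% had the same sign in the Cre-negative ones, against 81.9% of all tested genes. The comparisons share no library, although they share the lines, 1 scaling and 1 estimate of the spread. Syn-Cre-negative 5 stood apart, with 60.2% of reads in genes, against 69.2 to 70.9% in the other syn-Cre-negative libraries. Its reads outside genes took 11.1%, against 8.30 to 8.53%, and 7.46% were ambiguous. Every fit of the Cre-negative difference kept this library, so its part in those values was not tested. With each Cre status fitted alone, 3002 genes were shared, 57.9% of 5182 and 70.6% of 4250 calls. Across all tested genes Pearson's r between the line differences was 0.79 and Spearman's rho 0.72, as a description, since genes are not independent. A direct test of the difference between the line differences passed for 2 genes (0.0101%), Prm1 and Prickle2.

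**Figure D2:**
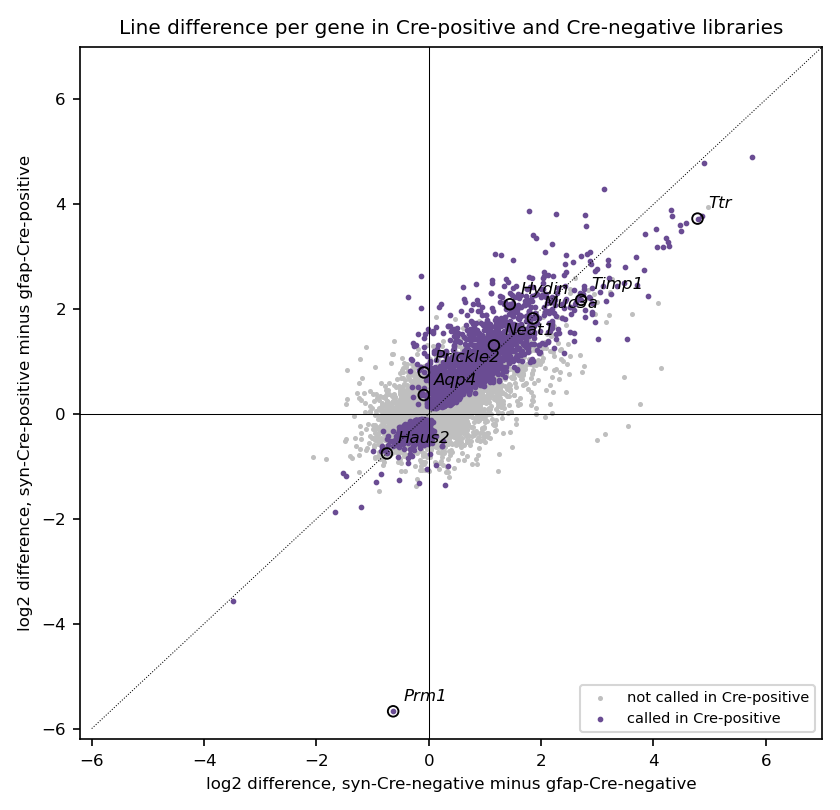
Log2 difference between the lines (syn minus gfap) for each of 19726 genes, in Cre-negative libraries on the x axis and Cre-positive libraries on the y axis. Purple points mark the 5416 genes called in the Cre-positive libraries. The points run along the diagonal, while Prm1 at −5.67 and Prickle2 at 0.79 on the y axis depart from it.

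Myelin genes were higher in every member. All 16 tested genes of mature oligodendrocytes, the cells that wrap axons in myelin, passed the test upward in the syn-Cre-positive group, with a median log2 difference of 0.59, where the share higher at like abundance was 8.70%. For 12 of the 16 the groups did not overlap. Their summed level was 6357 to 8509.7 CPM in the syn libraries and 3999.5 to 5912.7 CPM in the gfap libraries. Myrf, the transcription factor that switches on myelin genes, stood at 91.7, 87.3, 91.5, 84.6, 109 and 97.4 CPM against 62.2, 67.3, 50.4, 55.1, 44.6 and 47.2 CPM. Every syn library lay above every gfap library, a 1.72-fold difference (log2 0.78, SE 0.11, edgeR adjusted p = 2.8e-05). Mag, an adhesion protein of the inner myelin layer, stood at 222, 215, 235, 201, 281 and 256 CPM against 155, 179, 121, 169, 129 and 124 CPM. These groups did not overlap either, and the difference was 1.61-fold (log2 0.69, SE 0.12, edgeR adjusted p = 0.000319). Mog, on the outer face of myelin, ranged from 55.9 to 75.6 CPM against 34.0 to 51.5 CPM (log2 0.59, edgeR adjusted p = 0.000309). Opalin, a membrane protein of myelinating cells, differed by 0.67 (edgeR adjusted p = 0.000350) and Cnp, a phosphodiesterase of non-compact myelin, by 0.45 (edgeR adjusted p = 0.00136).

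The precursor list was mixed. Of 12 tested genes of oligodendrocyte precursors and newly formed cells, 4 were higher and 1 lower, 33.3% and 8.33% of the list against 11.6% and 21.1% at like abundance. Enpp6, a mark of newly forming oligodendrocytes, ranged from 8.26 to 13.1 CPM in the syn libraries and from 5.18 to 8.11 CPM in the gfap libraries, without overlap (log2 0.77, SE 0.11, edgeR adjusted p = 2.7e-05). Sox10, the lineage transcription factor, was higher by 0.54 (edgeR adjusted p = 0.000105), and Bcas1 and Olig1 by 0.54 and 0.23. Pdgfra, the growth factor receptor of the precursors, was lower (log2 −0.23, edgeR adjusted p = 0.0152) with overlapping groups. In the Cre-negative groups 12 of the 16 myelin genes were also higher, with a median of 0.36, and Mag and Myrf differed there by 0.39 and 0.58. The direct test of the change in line difference passed for no myelin gene. Without the 3 Ttr-rich syn libraries 13 of the 16 still passed, and with the share of reads outside genes as a covariate 10 passed with a median of 0.68.

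MYRF binds the letters CTGGCAC or CTGGTAC, and promoters of 3 myelin genes that hold them are shown because their genes were higher together with Myrf. The sequences are from RefSeq (GRCm38.p6), read in the direction of the gene and lying wholly before its start, with the motif or its reverse complement in capitals.
Mag, chr7:30914875-30914981, minus strand: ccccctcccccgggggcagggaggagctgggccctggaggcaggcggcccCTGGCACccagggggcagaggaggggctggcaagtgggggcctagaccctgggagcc
Mog, chr17:37023425-37023531, minus strand: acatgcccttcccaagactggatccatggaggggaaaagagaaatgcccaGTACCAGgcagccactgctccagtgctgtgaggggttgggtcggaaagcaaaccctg
Cnp, chr11:100574808-100574914, plus strand: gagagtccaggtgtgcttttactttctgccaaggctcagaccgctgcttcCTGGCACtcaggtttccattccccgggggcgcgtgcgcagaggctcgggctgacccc
The motif starts 68 bases before the gene start in Mag, 83 in Mog and 81 in Cnp. On both strands together it was found in the promoter window, 250 bases before to 50 after the start, of 4 of the 11 myelin genes with a window (Mag, Mog, Cnp and Opalin). Counted by window, since a gene may have several, that was 5 of 16 for these genes and 2331 of 32851 (7.10%) over all genes. Such a match is a description of letters and not a measured binding site.

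Genes of ependymal cells, the ciliated lining of the ventricles, were also higher in every member. All 11 tested genes passed upward, with a median log2 difference of 1.64 and a share higher at like abundance of 16.1%, and 8 of them had no overlap between groups. Hydin, a protein of the central pair of motile cilia, stood at 3.88, 2.35, 3.23, 2.45, 5.44 and 4.22 CPM against 0.861, 0.627, 0.797, 1.05, 0.846 and 0.860 CPM. The lowest syn library exceeded the highest gfap library, and the difference was 4.27-fold (log2 2.09, SE 0.23, edgeR adjusted p = 5.3e-07). Foxj1, the master transcription factor of motile cilia, stood at 10.3, 11.5, 7.29, 7.04, 15.7 and 17.8 CPM against 3.69, 4.45, 5.07, 5.20, 4.34 and 3.52 CPM. Its groups did not overlap, and it was 2.65-fold higher (log2 1.41, SE 0.24, edgeR adjusted p = 0.000236), with the highest levels in the Ttr-rich libraries 5 and 6. Tmem212, a membrane protein of ciliated cells, was higher by 2.42 (edgeR adjusted p = 2.9e-05). Dnah11, a motor protein of the ciliary dynein arms, was higher by 2.41 (edgeR adjusted p = 0.00016). Ccdc153 stood at 3.86 to 9.38 CPM against 0.356 to 3.16 CPM (log2 1.88, edgeR adjusted p = 0.00189). The Cre-negative groups showed 11 of 11 higher, with a median of 1.49. Without the 3 Ttr-rich libraries 8 of 11 passed and the median was 1.02, and with the share of reads outside genes as a covariate 10 passed with a median of 2.82.

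RFX factors act with FOXJ1 on cilia genes and bind sites built from the letters GTTGCC. Promoters of 4 ependymal genes that hold them are shown, again from RefSeq (GRCm38.p6), in the direction of the gene, before its start, with GTTGCC or its reverse complement in capitals.
Hydin, chr8:110266914-110266976, plus strand: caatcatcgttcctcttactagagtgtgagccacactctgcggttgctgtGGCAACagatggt
Ccdc153, chr9:44240475-44240580, plus strand: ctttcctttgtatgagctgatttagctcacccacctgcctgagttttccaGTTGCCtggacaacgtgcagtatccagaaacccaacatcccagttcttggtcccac
Dynlrb2, chr8:116504914-116505014, plus strand: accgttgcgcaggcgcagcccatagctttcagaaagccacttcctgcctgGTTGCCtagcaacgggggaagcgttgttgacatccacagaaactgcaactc
Sntn, chr14:13670760-13670865, plus strand: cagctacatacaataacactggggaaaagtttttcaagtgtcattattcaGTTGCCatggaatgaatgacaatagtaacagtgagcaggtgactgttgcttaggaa
These 4 were the members with the letters among 8 that have a window. Counted by window, the letters were on one strand or the other in 4 of 10 for these genes and in 4111 of 32851 (12.5%) over all genes. Dynlrb2, a dynein light chain, was higher in the syn group by 1.64 (edgeR adjusted p = 0.00291) and Sntn, a protein of the ciliary tip, by 1.89 (edgeR adjusted p = 0.00393).

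The choroid plexus list behaved differently, because 3 of the syn-Cre-positive libraries carried it. The choroid plexus makes cerebrospinal fluid, and 13 of its 16 tested genes were higher in the syn group (14.4% at like abundance), with a median log2 difference of 3.09. Ttr stood at 88.7, 2639.8, 144, 44.9, 1971 and 4779.8 CPM in the syn libraries. In the gfap libraries it stood at 21.04, 89.4, 130, 224, 223 and 43.3 CPM. Libraries 1, 3 and 4 of the syn group lay within the range of the gfap group, and libraries 2, 5 and 6 far above it (log2 3.73, SE 1.24, 95% interval 1.14 to 6.32, edgeR adjusted p = 0.0310). Folr1, a folate receptor of this epithelium, followed the same libraries, at 14.0, 12.5 and 26.3 CPM in libraries 2, 5 and 6 and 1.10, 1.39 and 0.487 CPM in libraries 1, 3 and 4. The gfap libraries held 0.168 to 1.86 CPM of Folr1. No called choroid plexus gene had groups without overlap. Without the 3 Ttr-rich libraries 0 of 16 passed in edgeR, 0 of them at an unadjusted p under 0.05, and the median was −0.29. These libraries were picked by the level of Ttr, itself a choroid plexus gene. A loss of the list's difference was thus built into that fit and is no separate result. On all libraries DESeq2 called 14 of the 16 and limma-voom with quality weights 0. Leaving out single libraries gave between 1 and 14 calls, with 1 when syn-Cre-positive 6 was left out. The genes with the largest fold differences upward among those above 1 CPM, Tmem72 (log2 4.90), Aqp1 (3.89) and Ttr, belong to this epithelium. In the Cre-negative groups all 16 were higher in the syn line, with a median of 3.93. Ttr exceeded 1000 CPM in 3 of 6 syn-Cre-negative libraries and in 0 of 6 gfap-Cre-negative ones. The fits without the Ttr-rich libraries left out Cre-positive libraries only. The part of the dissection in these levels was not tested.

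**Figure D3:**
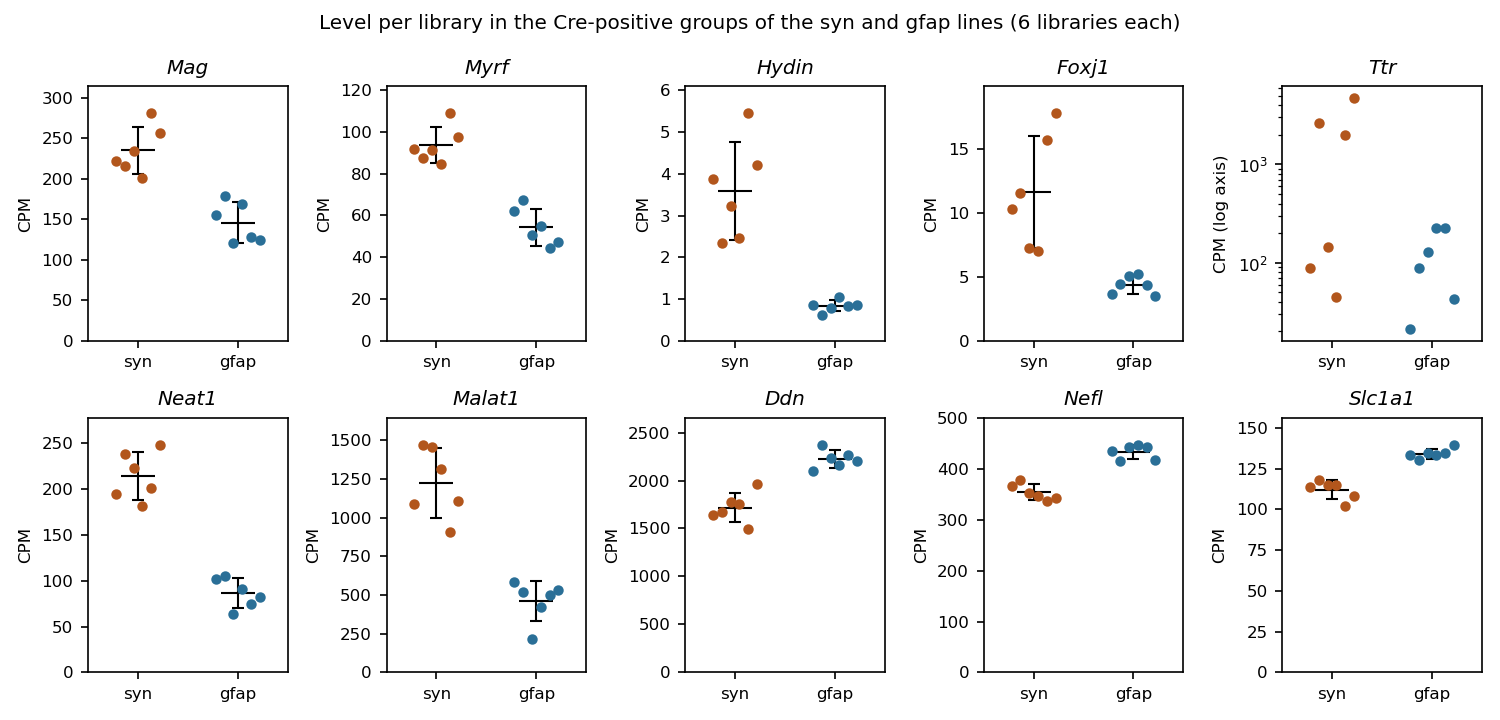
Levels in CPM of 10 genes in the 12 Cre-positive libraries. Points are libraries and bars mean ± SD (n = 6 per group), except for Ttr, which is drawn on a log axis without bars. Mag, Myrf, Hydin, Foxj1, Neat1 and Malat1 lie higher in the syn group without overlap, Ddn, Nefl and Slc1a1 lie lower without overlap, and Ttr splits the syn libraries 3 and 3.

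Long noncoding RNAs that stay in the nucleus made up the fourth group that was higher. Of 12 tested, 9 were higher and 1 lower in the syn-Cre-positive group (10.1% and 27.2% at like abundance), with a median log2 difference of 0.61. The largest difference of the list, 1.89, was that of Xist, which was close to absent, at 0.291 CPM or less. Neat1, the scaffold of nuclear paraspeckles, stood at 194, 238, 223, 181, 202 and 248 CPM against 102, 106, 64.2, 91.2, 74.6 and 82.1 CPM. The groups were far apart, and the difference was 2.48-fold (log2 1.31, SE 0.12, edgeR adjusted p = 2.2e-07). Malat1, which gathers in nuclear speckles, stood at 1089, 1471, 1457, 1316, 908 and 1107 CPM against 584, 520.4, 217, 421, 498 and 530.4 CPM. It was 2.65-fold higher without overlap (log2 1.41, SE 0.22, edgeR adjusted p = 0.000169). Kcnq1ot1, an imprinted antisense RNA, was higher by 1.48 (edgeR adjusted p = 5.4e-05). Snhg14, the imprinted RNA that hosts small nucleolar RNAs, was higher by 0.62 (edgeR adjusted p = 0.000326). The Cre-negative groups gave 9 higher and 1 lower as well, with a median of 0.68.

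These RNAs moved with the reads outside genes. Within the syn libraries the mean log2 CPM of the nuclear RNA list rose with the share of reads outside genes (Pearson's r = 0.95, exact permutation p = 0.00833, adjusted 0.0125 over 2 relations; Spearman's rho = 0.89, exact permutation p = 0.0333, adjusted 0.0583; n = 6). Without the 2 libraries farthest from the median share, r was 0.99. Within the gfap libraries r was 0.88 (exact permutation p = 0.0125, adjusted 0.0125) and rho 0.83 (exact permutation p = 0.0583, adjusted 0.0583; n = 6). It fell to 0.17 without the 2 farthest, so there the relation rests on those libraries. With this share as a covariate, an alternative chosen after seeing the data, Neat1 still passed at 1.22 (edgeR adjusted p = 0.00219), Malat1 did not at 0.57 (edgeR adjusted p = 0.350), and 1 of the 12 was called. The share differs between the groups without overlap, so its part and that of the line cannot be told apart by this fit.

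**Figure D4:**
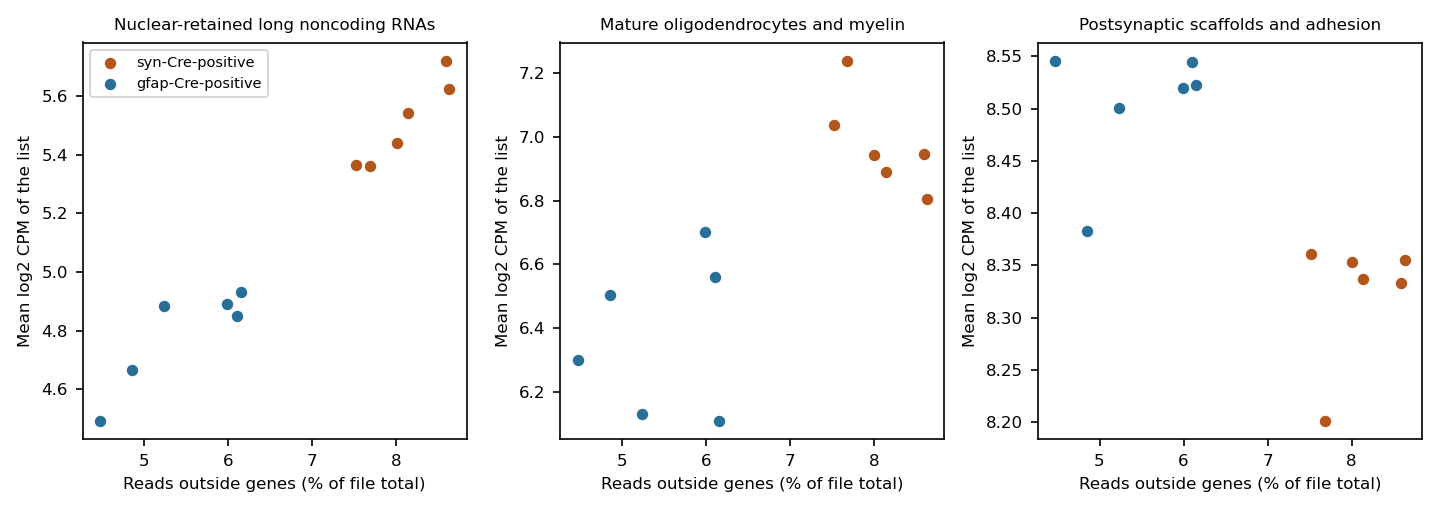
Mean log2 CPM of 3 gene lists (y axes, nuclear RNAs, myelin, postsynaptic) against the percentage of reads outside genes (x axes) in each of the 12 Cre-positive libraries. The nuclear RNA list rises along the x axis in the syn group, while the myelin and postsynaptic lists separate the groups at shares of 4.47 to 6.15% and 7.52 to 8.63%.

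Transcript classes differed in their shares of calls, set against 12.8% higher and 14.7% lower over all genes. The classes were not matched for abundance. Genes under 1 CPM gave 14.6% higher and 0.517% lower, and genes at 1 to 10 CPM gave 16.9% and 3.53%. Few lower calls were thus also found among all genes of low abundance. Of 811 antisense genes 164 were higher and 8 lower (20.2% and 0.986%). Of 825 lincRNA genes 127 were higher and 23 lower (15.4% and 2.79%), a split near that of all genes under 1 CPM. Of 641 genes of the class TEC, putative transcripts that await experimental proof, 233 were higher and 5 lower (36.3% and 0.780%). Protein-coding genes gave 1801 higher and 2756 lower of 15289 (11.8% and 18.03%), near the shares of all genes. The strand setting of the counting is not known here, so reads of antisense and overlapping genes may belong to their partners.

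Several neuronal genes were lower by small amounts in the syn-Cre-positive group, at shares near or above those of equally abundant genes. Of 15 general neuronal genes, 8 (53.3%, against 43.3% at like abundance) passed downward and none upward, with a median log2 difference of −0.18, and all 15 estimates were negative. Nefl, the light chain of neurofilaments, stood at 366, 378, 352, 347, 336.5 and 343 CPM against 435, 416, 442, 447, 443 and 417 CPM. Each syn library lay below each gfap library (log2 −0.29, SE 0.04, edgeR adjusted p = 1.3e-05). Celf4, an RNA-binding protein of neurons, was lower (log2 −0.26, edgeR adjusted p = 0.000197). Among 19 genes of postsynaptic scaffolds and adhesion, 11 were lower (57.9%, against 41.3% at like abundance) and 0 higher, with a median of −0.20. Ddn, a dendritic protein of the postsynaptic density, stood at 1641, 1677, 1776.5, 1755, 1496 and 1959 CPM against 2097, 2372, 2235, 2165, 2266 and 2206 CPM. The groups did not overlap (log2 −0.37, SE 0.05, edgeR adjusted p = 7.6e-06). Ppp1r9b (spinophilin, a spine scaffold) was lower (log2 −0.31, edgeR adjusted p = 7.6e-05). Lrrtm1, a synaptic adhesion protein, was lower (log2 −0.36, edgeR adjusted p = 7.8e-05), and so was Camk2a, the kinase of synaptic plasticity (log2 −0.26, edgeR adjusted p = 0.00222). Ddn, Ppp1r9b, Lrrtm1, Dlgap1 and Camk2a passed in every alternative run.

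Of 20 presynaptic genes 9 were lower and 0 higher, with a median of −0.15. The share lower, 45%, was near the 42% at like abundance, so the count is not a result about this list. Snap25, a core protein of vesicle fusion, ranged from 2088 to 2297 CPM in the syn libraries and from 2396 to 3056.5 CPM in the gfap libraries, without overlap (log2 −0.26, edgeR adjusted p = 0.000735). Cplx2, a complexin that clamps fusion, was lower (log2 −0.33, edgeR adjusted p = 0.000800). In the Cre-negative groups the same genes stood at −0.22 for Snap25 and −0.40 for Cplx2. Genes of GABA synthesis, uptake and reception gave 8 lower and 0 higher of 20, with a median of −0.13, and 40% against 40.3% at like abundance is likewise no result about the list. Gabra5, a receptor subunit of extrasynaptic inhibition, ranged from 144 to 194.5 CPM against 202 to 227 CPM (log2 −0.28, edgeR adjusted p = 0.00333). Interneuron markers gave 6 lower and 0 higher of 15 (40%, against 24.3% at like abundance), with a median of −0.25, and no GABA or interneuron gene passed in all of the alternatives. Without the 3 Ttr-rich libraries 1 GABA gene and 1 interneuron gene remained called, and with the share of reads outside genes as a covariate edgeR called 0 of each, with 9 GABA and 6 interneuron genes at an unadjusted p under 0.05.

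Immediate early genes, which neurons switch on with activity, gave 4 lower and 0 higher of 20 (20%, against 20.3% at like abundance), with a median of −0.23 against 0.08 in the Cre-negative groups. Jun ranged from 67.0 to 95.1 CPM against 95.3 to 105.5 CPM (log2 −0.29, edgeR adjusted p = 0.00407). Ptgs2 was lower (log2 −0.33, edgeR adjusted p = 0.00756), as were Nr4a3 (log2 −0.30, edgeR adjusted p = 0.0384) and Egr3 (log2 −0.28, edgeR adjusted p = 0.0478). Fos, at 2.75 to 12.6 CPM against 2.83 to 18.2 CPM, varied within both groups and did not pass (edgeR adjusted p = 0.677). The list's median was 0.02 with the share of reads outside genes as a covariate.

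Of 16 genes of glutamate uptake and recycling, 6 were lower (37.5%, against 34.9% at like abundance) and 1 higher, with a median of −0.11. Slc1a1, the neuronal transporter EAAT3, stood at 114, 118, 115, 115, 102 and 108 CPM against 133, 130, 135, 133, 135 and 139.7 CPM. No library crossed between groups (log2 −0.26, SE 0.04, edgeR adjusted p = 7.7e-05), and the Cre-negative difference was −0.25. Slc1a3, the second astrocytic transporter (EAAT1), ranged from 588 to 694 CPM against 729.7 to 795 CPM (log2 −0.23, edgeR adjusted p = 0.00110). Its Cre-negative difference of −0.12 did not pass (edgeR adjusted p = 0.0578), and the change between them was not called. Glud1, which turns glutamate into a Krebs cycle intermediate, was lower (log2 −0.17, edgeR adjusted p = 0.01). Slc38a3, which exports glutamine from astrocytes, was the member that was higher, at 65.0 to 98.6 CPM against 56.9 to 63.6 CPM (log2 0.34, edgeR adjusted p = 0.0112). Glutamate receptors gave 1 higher and 2 lower of 24 (8.33% lower, against 29.1% at like abundance). With upper-quartile scaling 2 of the uptake genes were lower and 1 higher.

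Astrocyte genes did not move as a group. Of 18 identity genes 3 were higher and 2 lower (16.7% and 11.1%, against 7.47% and 38.6% at like abundance), with a median of −0.05. Aqp4, the water channel of astrocyte endfeet, stood at 199, 208, 212, 216, 178 and 218 CPM against 164, 167, 173, 152, 154 and 148 CPM. The groups did not overlap (log2 0.36, SE 0.06, edgeR adjusted p = 0.000146). In the Cre-negative groups Aqp4 differed by −0.09 (edgeR adjusted p = 0.282), and the change between the comparisons, 0.45 (SE 0.09), did not pass the test over all genes (edgeR adjusted p = 0.109). Slc7a10, an astrocytic serine carrier, was higher by 0.46 (edgeR adjusted p = 0.000507). Aldoc, a glycolytic enzyme of astrocytes, ranged from 689.8 to 799 CPM against 803 to 1028 CPM (log2 −0.28, edgeR adjusted p = 0.000602). Gfap, the intermediate filament whose promoter names the gfap line, ranged from 511 to 689 CPM against 439.7 to 485 CPM (log2 0.32, edgeR adjusted p = 0.00263). Without the Ttr-rich libraries it was 0.24 and no longer passed (edgeR adjusted p = 0.0538). Reactive astrocyte genes gave 4 higher and 0 lower of 13 (30.8% higher, against 14% at like abundance), led by Timp1, a protease inhibitor, at 0.577 to 1.23 CPM against 0.0607 to 0.373 CPM (log2 2.18, edgeR adjusted p = 0.000164).

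Immune lists held few called genes, with shares lower close to or below those of equally abundant genes. Of 19 homeostatic microglial genes 4 were lower (21.1%, against 20.8% at like abundance) and 0 higher. P2ry12, the purine receptor that guides microglial processes, stood at 39.2, 38.3, 37.0, 42.0, 38.2 and 38.0 CPM against 53.7, 55.0, 58.0, 51.3, 52.8 and 43.4 CPM. The groups did not overlap (log2 −0.43, SE 0.06, edgeR adjusted p = 6.9e-06). Gpr34, Selplg and Csf1r were lower, with log2 differences of −0.29, −0.20 and −0.14. Of 21 genes of disease-associated microglia 5 were higher and 3 lower (23.8% and 14.3%, against 12.6% and 17.1%). The interferon and MHC class I list gave 2 higher and 1 lower of 25 (8% and 4%, against 15.2% and 7.45% at like abundance). Lymphocyte and neutrophil markers gave 1 higher of 6 (16.7%, against 14%). Lgals3 (galectin 3) was higher by 1.22 (edgeR adjusted p = 0.000441), Itgax by 1.39 (edgeR adjusted p = 0.00218) and Clec7a by 1.61 (edgeR adjusted p = 0.00105), all at a few CPM or less. Lpl, a lipase, was lower (log2 −0.52, edgeR adjusted p = 0.00141). Of 18 complement genes 4 were higher (22.2%, against 14.4% at like abundance). C3, the central component, ranged from 3.89 to 10.5 CPM against 0.917 to 2.61 CPM (log2 2.05, SE 0.38, edgeR adjusted p = 0.000619), and C4b ranged from 118 to 204 CPM against 67.9 to 108 CPM (log2 0.67, edgeR adjusted p = 0.0184). Without the 3 Ttr-rich libraries C3 was 1.59 and still passed (edgeR adjusted p = 0.0205), C4b was 0.46 and did not (edgeR adjusted p = 0.209), and 1 disease-associated gene was higher and 2 lower.

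Among endothelial genes 9 of 15 were lower (60%, against 21.4% at like abundance) and none higher, at a median of −0.32. No endothelial gene passed in all of the alternatives, and without the Ttr-rich libraries 4 did. Flt1, a receptor of vascular growth factor, ranged from 46.1 to 56.2 CPM against 60.1 to 72.1 CPM (log2 −0.37, edgeR adjusted p = 0.0111). Cldn5, a tight junction protein of brain vessels, was lower (log2 −0.39, edgeR adjusted p = 0.0225). Of 13 mitochondrially encoded genes 8 were lower (61.5%, against 39.4% at like abundance) and 0 higher, with a median of −0.24. The subunit mt-Co1 ranged from 16311 to 18408 CPM against 19193 to 22227 CPM (log2 −0.26, edgeR adjusted p = 0.000285). Nuclear genes of oxidative phosphorylation gave 16 lower of 22 with TMM scaling (72.7%, against 31.7% at like abundance). The count was 6 with RLE and 0 with upper-quartile scaling in edgeR (15 at an unadjusted p under 0.05). In DESeq2 it was 7, so that call depends on the scaling. Ribosomal protein genes gave 9 lower of 26 (34.6%, against 41.1% at like abundance), and 2 with upper-quartile scaling.

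Cholesterol synthesis was lower at several steps. Of 20 genes 11 were lower (55%, against 23% at like abundance) and 1 higher, with a median of −0.20 against −0.10 without Cre. Hmgcs1, which makes the substrate of the rate-limiting reductase, ranged from 168 to 194.5 CPM against 218 to 240.2 CPM (log2 −0.34, SE 0.05, edgeR adjusted p = 3.2e-05). Fdft1 and Sqle, the first enzymes of the sterol branch, were lower with log2 differences of −0.35 and −0.34. Groups did not overlap for these 3 genes. Tm7sf2, a sterol reductase, was higher by 0.27 (edgeR adjusted p = 0.0124). Without the Ttr-rich libraries 4 genes were lower and 1 higher.

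Markers of brain regions were read as a check of the tissue. Hippocampal genes gave 7 lower and 1 higher of 16 (43.8% lower, against 31.3% at like abundance), with a median of −0.26, and none passed in all of the alternatives. Fibcd1, a marker of CA1, ranged from 125 to 190.4 CPM against 204 to 237 CPM (log2 −0.39, edgeR adjusted p = 0.00857). Neurod6, a transcription factor of forebrain pyramidal cells, ranged from 154 to 191 CPM against 201 to 253 CPM (log2 −0.38, edgeR adjusted p = 2.3e-05). It was the only cortical gene of 14 that passed (7.14% lower, against 20.2% at like abundance). Cerebellar genes gave 4 higher and 2 lower of 13 (30.8% higher, against 13.4% at like abundance). Zic1, a cerebellar granule cell factor that meningeal cells also express, stood at 7.73, 21.1, 6.57, 9.06, 85.0 and 22.3 CPM in the syn libraries and at 5.50 to 13.02 CPM in the gfap libraries. Its high values fell in the Ttr-rich libraries 2, 5 and 6. En2, a midbrain and hindbrain factor, was higher by 1.32 (edgeR adjusted p = 0.000219), at 0.777 to 1.68 CPM against 0.338 to 0.748 CPM. Tcf7l2, a thalamic factor, reached 15.5 CPM in the syn group against at most 5.54 CPM in the gfap group, with overlap (log2 0.90, edgeR adjusted p = 0.0186), and did not pass without the Ttr-rich libraries (0.46, edgeR adjusted p = 0.160). The striatal and brainstem lists held 0 called genes in edgeR, with 1 and 0 at an unadjusted p under 0.05, and 1 each in DESeq2. At like abundance 13.6% were higher and 13.3% lower for the striatal list, and 15.5% and 1.81% for the brainstem list. What such differences in tissue composition contribute to other genes was not tested.

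Prm1 and Prickle2 were the genes whose line difference itself changed with Cre. Prm1 encodes a protamine of sperm chromatin. It had 3, 4, 9, 3, 1 and 10 counts in the syn-Cre-positive libraries and 293, 285, 201, 219, 247 and 273 counts in the gfap-Cre-positive libraries. The gfap-Cre-negative libraries had 3, 5, 14, 11, 8 and 1 counts, so the RNA was abundant only in Cre-positive animals of the gfap line among these 4 groups. The difference between the Cre-positive groups was −5.67 (SE 0.33, edgeR adjusted p = 2.5e-12), that between the Cre-negative groups −0.63 (edgeR adjusted p = 0.283), and the change was −5.04 (SE 0.61, edgeR adjusted p = 5.7e-05). A piece of the Prm1 gene is used as the tail of some Cre transgenes. The construct of this line is not given in the labels, and whether the counts come from it was not tested. Prickle2, a cytoplasmic protein of planar cell polarity that also sits at synapses, stood at 291, 290.1, 294, 299, 271 and 310.3 CPM against 179, 185, 164, 142, 157 and 185 CPM. The groups were far apart, a 1.73-fold difference (log2 0.79, SE 0.08, edgeR adjusted p = 9.8e-08). The Cre-negative difference was −0.09 (edgeR adjusted p = 0.402), and the change was 0.88 (SE 0.11, edgeR adjusted p = 5.7e-05). Mean Prickle2 levels were 305 CPM in the syn-Cre-negative and 323 CPM in the gfap-Cre-negative libraries. The syn-Cre-positive mean of 292.5 CPM was near these, and the gfap-Cre-positive mean of 169 CPM was the one that stood apart. Of 13 planar polarity genes 4 were higher (30.8%, against 10.5% at like abundance). Prickle2, which earlier results of these data singled out, is 1 of the 4, so this share is no separate support for it. The other 3 were Scrib (0.35), Dvl2 (0.38) and Dvl3 (0.31), and these 3 were also higher without Cre, by 0.29, 0.48 and 0.33.

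**Figure D5:**
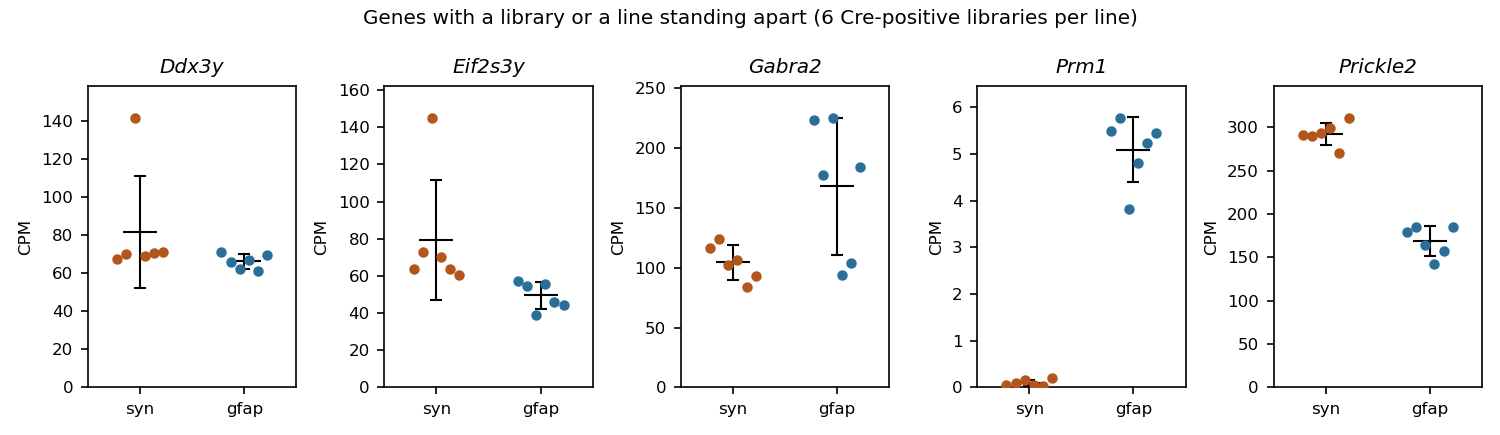
Levels of 5 genes per library in the 2 Cre-positive groups. Points are libraries. Ddx3y and Eif2s3y stand at 142 and 145 CPM in syn-Cre-positive 3 and at 73.0 CPM or less in all other libraries, Gabra2 spreads from 94.1 to 225 CPM in the gfap group, and Prm1 and Prickle2 separate the groups.

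The smallest p values among genes higher in the syn group belonged to Muc3a, Pxn and Plekhg3. Muc3a, a membrane mucin, stood at 9.06, 9.91, 11.4, 11.2, 7.75 and 11.4 CPM against 3.13, 3.36, 1.86, 2.46, 2.60 and 3.74 CPM. It was 3.54-fold higher without overlap (log2 1.82, SE 0.15, edgeR adjusted p = 5.0e-09), and 1.86 on the log2 scale in the Cre-negative groups. Pxn (paxillin, a focal adhesion adaptor) ranged from 47.2 to 54.0 CPM against 23.1 to 33.2 CPM (log2 0.80, edgeR adjusted p = 2.9e-08). Plekhg3, a guanine exchange factor, was higher by 0.82 (edgeR adjusted p = 5.3e-08). Among genes that were lower, Ivd, a mitochondrial enzyme of leucine breakdown, ranged from 60.3 to 65.9 CPM against 85.5 to 94.9 CPM (log2 −0.51, SE 0.04, edgeR adjusted p = 4.3e-09). Haus2, a subunit of the augmin complex of the spindle, stood at 12.7, 14.0, 15.1, 13.9, 13.5 and 14.2 CPM against 25.5, 23.2, 26.4, 20.1, 22.4 and 22.9 CPM. The groups did not overlap (log2 −0.75, SE 0.06, edgeR adjusted p = 5.0e-09), and the Cre-negative difference was also −0.75.

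Several of the genes that were lower lie on chromosome 2, distal of Slc1a2. Of the 10 lower genes with the smallest p, 5 were on chromosome 2, and 4 of these lay between 110 and 130 Mb, namely Ivd (chr2:118861954-118882909), Rtf1 (chr2:119675068-119735407), Haus2 (chr2:120609383-120621560) and Eif3j1 (chr2:122028546-122056598). The nearest of the 4 starts 16.2 Mb from Slc1a2. Of the 40 genes at least 1.5-fold lower, 14 (35%) were on chromosome 2, which holds 7.73% of tested genes, and 8 of them lay at 110 to 130 Mb. In the same stretch 10 genes were at least 1.5-fold higher, among them Pla2g4e, a phospholipase (1.93-fold, edgeR adjusted p = 1.4e-07). The stretch was picked with the places of these genes known, so its counts are a description. It holds 208 tested genes, of which 37.0% were called, against 27.5% over all genes. Over all tested genes 0.203% were at least 1.5-fold lower and 6.90% at least 1.5-fold higher. Among the 1361 genes at least 1.5-fold higher the share on chromosome 2 was 6.61%. Eif3j1, a subunit of an initiation factor, was lower (log2 −0.72, edgeR adjusted p = 2.2e-07), and so was Rtf1, part of a transcription elongation complex (log2 −0.32, edgeR adjusted p = 5.5e-06). Bub1b (chr2:118598211-118641591), a spindle checkpoint kinase chosen after its values were seen, had 3, 4, 4, 3, 3 and 9 counts in the syn libraries. It had 25, 56, 79, 37, 38 and 76 counts in the gfap libraries (log2 −3.57, SE 0.54, edgeR adjusted p = 4.6e-05), and the Cre-negative difference was −3.49.

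The 3 windows of 10 Mb with the largest share of calls, picked by that share among 251, are given as a description beside the 27.5% called over all genes. They were the first 10 Mb of chromosome 4, with 11 of 22 genes called (50%), chromosome 7 at 50 to 60 Mb, with 22 of 46 (47.8%), and chromosome 14 at 100 to 110 Mb, with 10 of 21 (47.6%). In the Cre-negative libraries their shares were 54.5%, 54.3% and 33.3%. They included Nsmaf (0.40) and Rab2a (−0.33) on chromosome 4, Gabra5 and Snhg14 on chromosome 7, and Kctd12 (−0.34) and Spry2 (−0.27) on chromosome 14. Gabra2, a GABA-A receptor subunit with a known regulatory variant among laboratory mice, stood at 116, 124, 103, 107, 84.1 and 92.8 CPM in the syn libraries. In the gfap libraries it stood at 224, 178, 225, 94.1, 104 and 185 CPM. Gfap libraries 4 and 5 lay within the syn range and the other 4 above it (log2 −0.69, SE 0.21, edgeR adjusted p = 0.0203). The call was lost in 6 of the alternatives, among them those without syn-Cre-positive 6 and without gfap-Cre-positive 3.

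Sex-linked genes were read as a check of the animals. Xist, the RNA that silences the second X chromosome of females, was at most 0.291 CPM in all 12 libraries. At means of 0.192 CPM in the syn and 0.0497 CPM in the gfap group it was still called higher (log2 1.89, edgeR adjusted p = 0.0175), with overlap. Ddx3y, a Y-linked helicase, stood at 67.6, 70.3, 142, 69.1, 70.8 and 71.1 CPM in the syn libraries and at 61.2 to 71.1 CPM in the gfap libraries. Syn-Cre-positive 3 held 2.01 times the median of the other 5 for Ddx3y, 2.28 times for Eif2s3y, 2.08 times for Kdm5d and 1.86 times for Uty. Eif2s3y, a Y-linked initiation factor subunit, was higher in the syn group by 0.68 (edgeR adjusted p = 0.0104) and by 0.42 without that library (edgeR adjusted p = 0.0145). Median ratios of the autosomes in syn-Cre-positive 3 stayed between 0.983 and 1.00.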

How the data were processed

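Each library came as a table of raw read counts per gene, deposited by the authors without normalization. The tools listed, per the submitters' processing notes, are HISAT2 with no version stated, then DESeq2 1.6.3 and HTSeq 0.6.0, with mm10 as the build. Neither the strand setting nor the annotation release is stated. Per the labels' protocols, a lipid tissue kit was used for extraction and an Illumina HiSeq for sequencing.

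Symbols and coordinates were taken from GENCODE M21 (GRCm38), which named 52489 of 52636 identifiers (99.7%). The last 5 lines of each deposited count file are totals that name no gene, so neither scaling nor testing used them. One of them, reads outside genes, made up 4.47 to 8.63% of the Cre-positive files. The cell type and genotype labels gave the groups. Replicate numbers are in accession order and only name a library. No library was a copy of another, since counts differed beyond counting noise in each of the 60 pairs inside groups. The labels speak of 6 mice per group, so libraries were taken as animals. The first number in the sample titles is shared by several libraries of a group and never by libraries of different groups. No fit used that number, so libraries that share it were treated as independent.

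Genes passing filterByExpr (19726) received TMM factors. A single 4-group model of all 24 libraries was fitted with edgeR 4.0.16 in R 4.3.3, leaving 20 residual degrees of freedom, and tested with robust quasi-likelihood F tests. The contrasts were syn minus gfap in Cre-positive libraries, the same in Cre-negative libraries, and their difference. Genes with a Benjamini-Hochberg adjusted p under 0.05 over all tested genes were called. Intervals are 95%. The fit was tested on simulated counts. Alternatives covered RLE and upper-quartile scaling, other filters, DESeq2 1.42.0, limma-voom (limma 3.58.1), each Cre status alone, GC and length offsets, a choroid plexus covariate, leaving out the 3 Cre-positive libraries over 1000 CPM of Ttr, leaving out each Cre-positive library, and, added after seeing the data, the share of reads outside genes as a covariate.

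The 48 gene lists (741 genes) and the libraries compared were chosen with earlier results of these data known. The rule for named genes took Slc1a2, Prm1, Prickle2, Aqp4, Ttr, Xist and Ddx3y, the called genes of each direction with the smallest p and the largest fold above 1 CPM, up to 4 called members of each list, and called genes of the 3 windows of 10 Mb with the largest share called. Predicted genes were counted and not named. Some genes that the rule takes are left out of the text. Members named without a call, such as Fos and Rbfox3, and Zic1, Folr1, Uty, Bub1b, Dynlrb2, Sntn, Camk2a and other list members beyond the first 4 were named after their values were seen. Promoter windows are RefSeq sequences of GRCm38.p6.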

Additional observations from a re-analysis of the deposited data

Results flagged for a closer look

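Of 106 values checked for a library apart from the other 5 of its group, 9 had one, where chance gives about 1 in 20. Syn-Cre-positive 3 stood apart with 141.5 CPM of Ddx3y and 144.8 CPM of Eif2s3y. Syn-Cre-positive 5 stood apart with 9.38 CPM of Ccdc153 and 84.8 CPM of Fdft1, both high, and with 33.7 CPM of Lpl, which was low. Syn-Cre-positive 6 was low for Slc1a2 at 2615.9 CPM and high for Pxn at 54.0 CPM. In the gfap group, library 3 was high for Snap25 at 3056.5 CPM and library 2 low for Fdft1 at 88.1 CPM. The line difference changed between Cre-negative and Cre-positive libraries, by the direct test of that change, by −5.04 for Prm1 and by 0.88 for Prickle2 on the log2 scale.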

How the results depend on the processing

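The count of 5416 genes fell to 2462 (1605 higher, 857 lower) without the 3 Ttr-rich libraries, which leaves 3 syn libraries, and to 677 (493 higher, 184 lower) with the share of reads outside genes as a covariate, an alternative added after seeing the data. It was 4754 with RLE scaling, 4445 with upper-quartile scaling, 5379 with DESeq2 and 6163 with limma-voom. Lower genes numbered 1532 with upper-quartile scaling and 1574 with a filter of 1 CPM in 6 libraries. Leaving out 1 library gave 3978 to 5239 calls, 1925 to 2577 higher and 1869 to 2789 lower, with the fewest lower without gfap-Cre-positive 5. At least 1.5-fold higher genes numbered 1053 to 1418 on leaving out 1 library and 424 with the outside-genes covariate. At least 1.5-fold lower genes numbered 21 with upper-quartile scaling, 11 with the 1 CPM filter, 69 with limma-voom and 18 with that covariate. They ranged from 24 without gfap-Cre-positive 5 and 26 without gfap-Cre-positive 3 to 50 without syn-Cre-positive 1. Cre-negative calls fell to 606 with the covariate, and shared calls to 1971 without the Ttr-rich libraries and 389 with the covariate. With choroid plexus level as a covariate, and without the Ttr-rich libraries, the direction turned for Ttr (−0.10 and −0.38), Slc4a5 (−0.35 and −0.59), Mfrp (−0.56 and −0.73), Steap1 (−0.014 and −0.12), Cldn2 (−0.47 and −0.86), Kcnj13 (−0.25 and −0.44), Kcne2 (−0.22 and −0.54) and the choroid plexus median (−0.10 and −0.29). The covariate was the mean of the 16 tested choroid plexus genes, and the Ttr-rich libraries were picked by Ttr. A loss of the choroid plexus difference was thus built into both fits and is no separate result. The disease-associated microglia median turned to −0.026 without the Ttr-rich libraries. With the outside-genes covariate Selplg turned to 0.033, B2m to 0.10, and the medians of immediate early and heat shock genes to 0.021 and 0.050. The cause of these shifts was not tested. Called in every one of the 23 alternatives with 1 sign were 315 genes, 203 higher and 112 lower, and 49 of the 182 named genes. No paired analysis was possible because the labels give no replicate numbers that groups share. The gene totals limit the precision of genes with few counts, such as Bub1b in the syn libraries.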
